A study of Mus musculus with 6 samples.

Results

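A set of 10 transcripts that mark the granule cells of the dentate gyrus was followed in RNA-seq libraries of the mouse hippocampus. Prox1, Dsp, C1ql2, Stxbp6, Lct, Trpc6, Tdo2, Npnt, Glis3 and Dock10 were chosen by name and found through the symbols of the Ensembl identifiers in the deposited count tables, which gave 10 of 10 genes among the 54752 genes counted. All 10 passed the filter on low counts, which 18617 genes passed. The libraries came from the whole right hippocampus of wild-type (WT) male C57BL/6 mice (C57BL/6 J in the methods of the study) labelled 14 weeks, with 1 library per mouse, from 3 sham mice and 3 BCAS mice. In BCAS mice (bilateral carotid artery stenosis) a microcoil narrowed each common carotid artery, more tightly on the right, which is the side sampled, and sham mice had the operation without coils. Tissue was taken 3 weeks after surgery. The only comparison of the design is BCAS against sham, and it is read here for one neuron type in a tissue that holds many.

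Granule cells form the densely packed principal layer of the dentate gyrus. They receive the perforant path from entorhinal cortex and send mossy fibres to mossy cells and to CA3 pyramidal cells, and new granule cells are added from local progenitors through adult life. Prox1 is the homeobox transcription factor that specifies and maintains this fate, and the other 9 genes are transcripts used to mark the cells rather than parts of a single pathway. Some of them are also made in other cells of the brain, its vessels or its coverings, so a level in whole tissue is not that of granule cells alone.

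Libraries held 29652456 to 35607098 counts, more in each sham library than in each BCAS library. Levels are given as CPM, the count scaled to library size, after TMM scaling, and 3 counts equalled 0.0875 to 0.0995 CPM, a limit that covers counting error only. BCAS and sham libraries were compared by the quasi-likelihood test of edgeR, with P adjusted over all 18617 genes. A gene was called at an adjusted P under 0.05, and DEGs also needed an absolute log2 fold change above 1. Of all tested genes 13.2% were called lower and 18.0% higher in BCAS mice, while DEGs were 0.999% lower and 8.47% higher. The median within-group SD was 0.18 log2 CPM. Hippocampal markers were present, with CA1 markers at a summed 794 to 1050 CPM in sham libraries. Markers of the choroid plexus, which is not hippocampus, ranged from 52.5 to 6090 CPM, and sham library 3 and BCAS library 2 stood apart with the lowest sums.

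Among the 10 granule cell genes, Dsp, Lct and Tdo2 were lower in BCAS mice and the other 7 were not called. All 3 were DEGs, with BCAS levels of 0.403, 0.448 and 0.355 times the sham level. No gene of the 10 was called higher by edgeR, at an adjusted or an unadjusted P under 0.05, and DESeq2 and limma-voom also called 0 in either way. The 3 of 10 called lower, all DEGs, stand beside 13.2% of all tested genes called lower and 0.999% that were lower DEGs. The 0 of 10 called higher stand beside 18.0%. The genes were chosen with earlier results of these data known. The median log2 fold change of the 10 genes was -0.05, against 0.02 for all tested genes. In whole tissue, fewer granule cells and less RNA per granule cell cannot be told apart.

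The promoters of 3 of these genes are printed to show how different the regulatory sequence of genes used to mark one cell type can be. Lct and Dsp were lower in BCAS mice and C1ql2 was not called. Each sequence is the 250 bases before the RefSeq start (build GRCm38.p6, the assembly behind mm10), 5′ to 3′ on the strand of the gene. Capitals mark the GC box GGGCGG on either strand.
Lct, chr1:128328319-128328568, minus strand: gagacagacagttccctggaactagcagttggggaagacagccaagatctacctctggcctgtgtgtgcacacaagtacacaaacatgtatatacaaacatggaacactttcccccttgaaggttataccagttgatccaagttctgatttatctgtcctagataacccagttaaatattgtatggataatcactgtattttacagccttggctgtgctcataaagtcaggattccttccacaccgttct
Dsp, chr13:38151044-38151293, plus strand: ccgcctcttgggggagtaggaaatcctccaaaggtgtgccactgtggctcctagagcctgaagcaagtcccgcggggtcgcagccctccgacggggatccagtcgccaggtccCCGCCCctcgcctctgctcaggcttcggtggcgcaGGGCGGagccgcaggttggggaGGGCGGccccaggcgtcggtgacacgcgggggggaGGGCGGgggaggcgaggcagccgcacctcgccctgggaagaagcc
C1ql2, chr1:120340332-120340581, plus strand: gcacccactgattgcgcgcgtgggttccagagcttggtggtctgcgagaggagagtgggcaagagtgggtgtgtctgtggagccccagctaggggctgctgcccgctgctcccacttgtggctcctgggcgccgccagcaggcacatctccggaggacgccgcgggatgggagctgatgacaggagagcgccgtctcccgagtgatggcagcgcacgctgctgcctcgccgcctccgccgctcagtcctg
The Lct window was AT-rich, with 42.8% GC and a CpG observed over expected ratio of 0.0883. These values lie at the 18.6th and 13.6th percentile of the promoters of 27018 genes, whose medians are 52% GC and a ratio of 0.38. The Dsp window had 72.4% GC, a ratio of 0.679 and 4 GC boxes, and it lies within an exon of the opposite-strand gene Gm10129. C1ql2 had 68.8% GC and a ratio of 0.681 without a GC box. Tdo2, the third gene that was lower, resembled Lct more than Dsp, with 46.4% GC and a ratio of 0.224, but its 250 bases lie within an annotated exon inside the Tdo2 locus. Lct and Tdo2 were the 2 of 10 genes below the median GC, and the other 8 were above it.

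Short motifs were searched on both strands in the first RefSeq window of each gene. CAGCTG and CAGATG are variants of the E-box, and no motif contains another. The GC box was found in 5 of 10 genes and in 32.9% of all promoters. TATAAA was found in 2 of 10 genes, Prox1 and Tdo2, and in 13% of all promoters. CAGCTG occurred in Glis3 and in 12.8% of promoters, and CAGATG in Prox1 and Dock10 and in 14.5%. The cyclic AMP response element TGACGTCA was in 0 of the 10 windows and in 1.62% of promoters. These matches describe the letters of the windows and not bound sites.

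Tdo2 encodes tryptophan 2,3-dioxygenase, which opens the kynurenine pathway of tryptophan breakdown. The gene (ENSMUSG00000028011.16, mm10 chr3:81957090-81976202, minus strand) was the least abundant of the 10 in CPM. Sham libraries 1 to 3 had 241, 331 and 220 counts, and BCAS libraries 1 to 3 had 111, 58 and 92. These equalled 7.11, 9.91 and 6.41 CPM in sham mice and 3.42, 1.92 and 2.95 CPM in BCAS mice. Every BCAS library lay below every sham library, as it did for 22.7% of all tested genes. The mean fell from 7.81 ± 1.85 CPM to 2.76 ± 0.764 CPM (SD, n = 3 each). The log2 fold change was -1.50 (SE 0.256, 95% interval -2.08 to -0.92, edgeR adjusted P = 0.00288). Tdo2 was the only one of the 10 genes called under each of 18 alternative settings, with adjusted P from 2.66e-07 to 0.0331. With sham library 3 and BCAS library 2 both left out it was -1.43 (adjusted P = 0.0104).

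Of 11 other genes of the kynurenine pathway 7 were tested, and only Haao, the enzyme that makes the precursor of quinolinic acid, passed. Haao was higher, from 0.413, 0.688 and 0.262 CPM in sham libraries to 1.6, 3.25 and 4.39 CPM in BCAS libraries (log2 fold change 2.75, SE 0.472, edgeR adjusted P = 0.00292). Its BCAS libraries lay above all sham libraries, as in 25.3% of all tested genes. Ido2, which encodes a second enzyme for the step that Tdo2 catalyses, had a log2 fold change of -0.86 (adjusted P = 0.104). Ido1 stayed at or below 0.413 CPM and was not tested. With scaling to pan-neuronal genes 4 of the 7 were higher, Haao (3.33), Qprt (1.604), Afmid (1.25) and Kyat3 (0.70), and scaled to the other dentate granule genes 2 were higher. The first scaling moved the median of all tested genes to 0.58, with 53.6% called higher and 0.661% lower, and under the second 23.4% were called higher, so these shares of the 7 genes stand near those of all genes.

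Dsp encodes desmoplakin, the protein that ties desmosomes to intermediate filaments. Its gene (ENSMUSG00000054889.10, chr13:38151294-38198577, plus strand) shares 499 exonic bases, 5.17% of its exonic length, with Gm10129 on the other strand. Reads on the shared bases were assigned to neither gene, since counting ignored strand, and Gm10129 had 0 to 4 counts. Dsp had 31.9, 33.7 and 17.2 CPM in sham libraries and 13.8, 5.34 and 14.2 CPM in BCAS libraries. The groups did not overlap, but sham library 3 came close to BCAS libraries 1 and 3. The means were 27.6 ± 9.06 CPM in sham mice and 11.1 ± 4.99 CPM in BCAS mice, with a log2 fold change of -1.31 (SE 0.364, 95% interval -2.14 to -0.49, edgeR adjusted P = 0.0246). Scaling to pan-neuronal genes (-0.72, adjusted P = 0.16) and a replicate block (-1.357, adjusted P = 0.0565) lost the call of Dsp. The call was also lost without sham library 1 (-1.20, adjusted P = 0.089) and without sham library 2 (-1.15, adjusted P = 0.0764). With sham library 3 and BCAS library 2 both left out, a setting added after seeing the data, it was -1.25 (SE 0.109, adjusted P = 0.0021). These were the lowest libraries of their groups, so a smaller spread follows from the choice and the P is not an independent check. Without BCAS library 2 alone, Dsp was still called but at -0.99 was no longer a DEG.

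Of 8 other desmosome genes, 7 were tested, 1 was lower and 2 were higher. Pkp2, plakophilin 2, which binds desmoplakin, was lower at 33.8, 28.6 and 26.7 CPM in sham libraries and 18.7, 13.8 and 10 CPM in BCAS libraries (log2 fold change -1.07, SE 0.207, edgeR adjusted P = 0.00523). Among BCAS libraries Pkp2 was lowest in library 3, unlike Dsp. Jup, plakoglobin, was higher by 0.24 on the log2 scale (adjusted P = 0.0464). Pkp3 was also higher (2.48, adjusted P = 0.00809) but did not exceed 0.737 CPM in any library. With RLE size factors, another scaling, 1 of the 7 tested genes was higher instead of 2. The cadherins Dsg2 and Dsc2 were not called, with log2 fold changes of 0.72 and 0.71. When libraries were scaled to pan-neuronal genes instead of TMM, Pkp2 was not called (-0.54, adjusted P = 0.0615), and 0 of the 7 genes were lower and 6 higher. Under that scaling 0.661% of all tested genes were called lower and 53.6% higher.

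Lct encodes lactase, the intestinal enzyme that splits milk sugar, and its transcript is a marker of granule cells in the mouse brain. Levels of this gene (ENSMUSG00000026354.8, chr1:128284756-128328318, minus strand) were 39.3, 34.8 and 23.4 CPM in sham libraries and 21.1, 6.73 and 15.8 CPM in BCAS libraries. BCAS library 1 was only slightly below sham library 3, and BCAS library 2 was far below the rest. The mean was 32.5 ± 8.16 CPM in sham mice and 14.5 ± 7.25 CPM in BCAS mice (log2 fold change -1.16, SE 0.355, 95% interval -1.96 to -0.36, edgeR adjusted P = 0.036). Of the 3 genes called lower, Lct was the one whose call was lost most often, and it held in 12 of 18 settings. It was missed by DESeq2 (-1.18, adjusted P = 0.0531) and when libraries were scaled by their totals (-1.08, adjusted P = 0.0531). It was also lost without sham library 1 (-1.004, adjusted P = 0.125), sham library 2 (-1.11, adjusted P = 0.0869) or BCAS library 3 (-1.23, adjusted P = 0.0715). Scaled to pan-neuronal genes, Lct was not called either (-0.58, adjusted P = 0.231). Without BCAS library 2 it stayed called at -0.83. With sham library 3 and BCAS library 2, the lowest of their groups, both left out it was -1.02 (adjusted P = 0.00729). That setting was added after seeing the data, so its P is not an independent check.

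**Figure D1:**
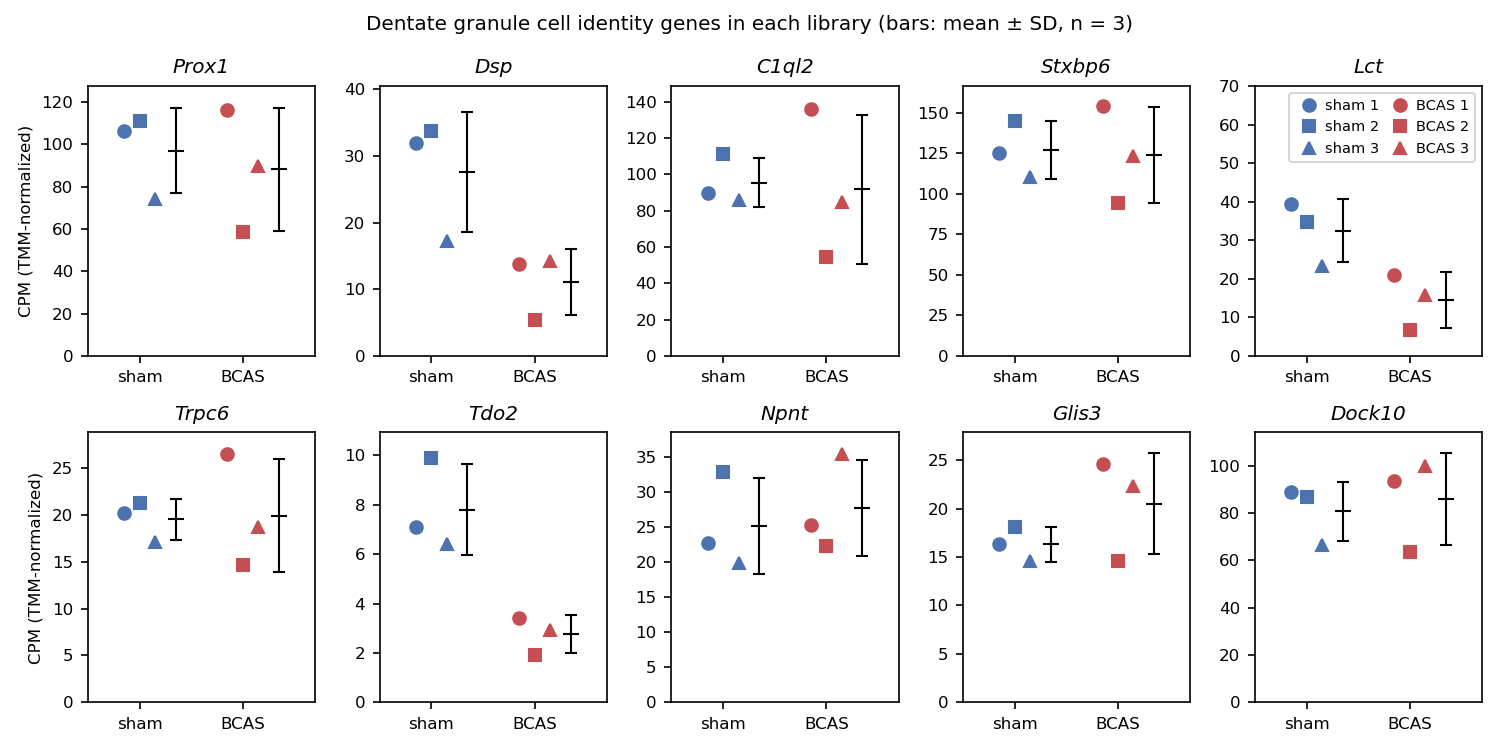
TMM-normalized CPM of each gene in each library (vertical axes, from 0), with sham in blue and BCAS in red, and the mean ± SD of 3 libraries beside the points. In Dsp, Lct and Tdo2 the BCAS points lie below all sham points, and in the other 7 genes the groups overlap. Triangles in sham and squares in BCAS, sham library 3 and BCAS library 2, are the lowest points of their group in every panel.

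Prox1 itself was not called. Its gene (ENSMUSG00000010175.13, chr1:190118035-190170714, minus strand) shares 133 exonic bases with the antisense Prox1os, which had 67 to 150 counts. Prox1 had 106, 111 and 73.9 CPM in sham libraries and 116, 58.3 and 89.9 CPM in BCAS libraries. The highest and the lowest library were both BCAS libraries. The means were 97.0 ± 20.1 and 88.2 ± 29.1 CPM (log2 fold change -0.14, SE 0.235, 95% interval -0.67 to 0.40, edgeR adjusted P = 0.699). The interval therefore leaves room for a moderate fall or rise.

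Glis3, a zinc finger transcription factor (ENSMUSG00000052942.13, chr19:28258851-28680077, minus strand), had the largest positive value. Sham libraries had 16.3, 18.1 and 14.6 CPM, and BCAS libraries had 24.6, 14.6 and 22.3 CPM. BCAS library 2 lay at the bottom of the sham range and the other BCAS libraries above it. The log2 fold change of 0.33 (SE 0.187, 95% interval -0.10 to 0.75) was not called (edgeR adjusted P = 0.218). Without BCAS library 2 it was called higher (0.51, adjusted P = 0.0153), and with sham library 3 left out as well it was 0.43 (adjusted P = 0.0459). The setting without both was added after seeing the data, and they were the lowest libraries of their groups. Without BCAS library 1 the value went down to 0.17 (adjusted P = 0.559), and without sham library 3 or BCAS library 3 it was 0.25 and 0.26 (adjusted P = 0.458 and 0.436). Of 5 other GLIS and GLI factors, Gli2 (0.64), Glis2 (0.45) and Gli3 (0.44) were higher and Glis1 and Gli1 were not called. Of all tested genes 18.0% were called higher. These are levels of whole tissue, and which cells they come from was not tested.

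C1ql2, a secreted C1q-like protein of mossy fibre synapses, is short (2000 exonic bases) and had the highest level per length. The gene (ENSMUSG00000036907.9, chr1:120340582-120343174, plus strand) had 89.5, 111 and 85.9 CPM in sham libraries and 136, 54.6 and 84.8 CPM in BCAS libraries. The sham libraries lay inside the BCAS range, which spanned 2.49-fold. The log2 fold change was -0.06 (SE 0.272, 95% interval -0.67 to 0.56, edgeR adjusted P = 0.901). Its synaptic partners are kainate receptor subunits, neurexins and the adhesion receptor Adgrb3. Of 6 such genes 3 were lower, namely Grik4 (-0.61, adjusted P = 0.0488), Nrxn3 (-0.61, adjusted P = 0.00174) and Adgrb3 (-0.58, adjusted P = 0.0058). These genes are also expressed by other neurons. Scaled to pan-neuronal genes, Grik4, Nrxn3 and Adgrb3 were at -0.07, -0.06 and -0.04 and not called, and the list had 0 lower and 3 higher. In that fit 0.661% of all tested genes were lower and 53.6% higher. With library totals Grik4 was not called (adjusted P = 0.0731).

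Stxbp6 encodes amisyn, which binds SNARE proteins and restrains vesicle release. Its gene (ENSMUSG00000046314.16, chr12:44852484-45074709, minus strand) had 125, 145 and 110 CPM in sham libraries and 154, 94.4 and 123 CPM in BCAS libraries. The groups overlapped, with a log2 fold change of -0.04 (SE 0.169, 95% interval -0.42 to 0.35, edgeR adjusted P = 0.894). Among 8 SNARE partner genes 5 were lower, with Snap25 at -0.70, and 1 was higher, Snap23 at 0.98. Scaled to pan-neuronal genes, a list that itself holds Snap25, 0 were lower and 2 were higher, beside 0.661% and 53.6% of all tested genes. The summed level of these partners was 4520 to 5120 CPM in sham libraries and 2800 to 3960 CPM in BCAS libraries.

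Trpc6, a calcium-permeable channel opened by diacylglycerol, had one of the smallest differences. The gene (ENSMUSG00000031997.9, chr9:8544142-8680741, plus strand) had 20.2, 21.3 and 17.1 CPM in sham libraries and 26.5, 14.6 and 18.7 CPM in BCAS libraries. The group means of 19.5 and 19.9 CPM lay within the spread, with a log2 fold change of 0.03 (SE 0.201, 95% interval -0.43 to 0.49, edgeR adjusted P = 0.928). Among other TRPC genes, Trpc4 (-1.05, SE 0.148, adjusted P = 0.00109) and Trpc1 (-0.50, adjusted P = 0.015) were lower. Trpc4 had 51.8, 43.4 and 54.9 CPM in sham libraries and 28.7, 24.5 and 19.5 CPM in BCAS libraries, a pattern without the low sham library 3 of Trpc6. Trpc5 and Trpc7 were not called. Under pan-neuronal scaling Trpc4 stayed lower (-0.50, adjusted P = 0.0272) and Trpc1 was not called (0.04, adjusted P = 0.803).

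Npnt and Dock10 completed the set. Npnt encodes nephronectin, a matrix ligand of the integrin made of Itga8 and Itgb1 (ENSMUSG00000040998.18, chr3:132881745-132950291, minus strand). It had 22.7, 32.9 and 19.9 CPM in sham libraries and 25.3, 22.4 and 35.5 CPM in BCAS libraries, and the groups overlapped (log2 fold change 0.14, SE 0.217, 95% interval -0.35 to 0.63, edgeR adjusted P = 0.663). Of its receptor genes, Itgb1, which many cell types express, was higher (0.94, adjusted P = 0.000395), and Itga8 was not called (-0.44, adjusted P = 0.108). Dock10 encodes an exchange factor for Cdc42 and Rac1 (ENSMUSG00000038608.15, chr1:80501073-80758527, minus strand). It had 88.8, 86.6 and 66.4 CPM in sham libraries and 93.6, 63.7 and 100 CPM in BCAS libraries, again with overlap (log2 fold change 0.09, SE 0.171, 95% interval -0.30 to 0.48, edgeR adjusted P = 0.724). Of its relatives, Dock9 was lower (-0.53, adjusted P = 0.0083) and Dock11 higher (0.50, adjusted P = 0.015). Cdc42 and Rac1 were not called, at 0.02 and -0.02. Rhoj (0.98) and Rhoq (0.60) were higher. Scaled to pan-neuronal genes, Dock9 was at 0.02 (adjusted P = 0.926), Cdc42 (0.58, adjusted P = 0.00319) and Rac1 (0.54, adjusted P = 0.00599) were called higher, and the list of 7 genes had 0 lower and 5 higher, with Cdc42 and Rac1 near the median gene at 0.58.

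**Figure D2:**
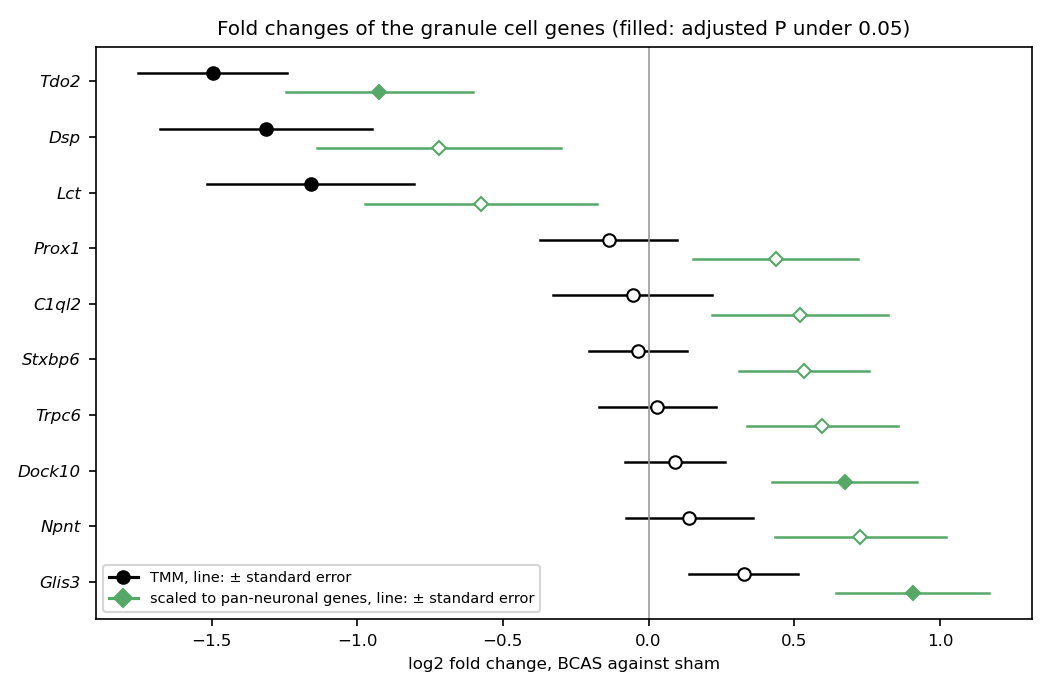
Log2 fold change of BCAS against sham for each gene, with lines for ± 1 standard error and filled symbols for an adjusted P under 0.05. Black circles use TMM scaling and green diamonds scaling to pan-neuronal genes. Tdo2, Dsp and Lct lie to the left at -1.50, -1.31 and -1.16 under TMM, and every gene moves to the right under the pan-neuronal scaling.

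Variation between libraries of one group was large and was shared by the genes. The within-group SD of log2 CPM was above the median of all tested genes in 10 of 10 genes. It was highest in Dsp (0.679, the 93.3rd percentile) and Lct (0.662, the 92.8th percentile) and lowest in Stxbp6 (0.287, the 68.7th percentile). In CPM the coefficient of variation was larger in BCAS than in sham mice in 9 of 10 genes, with Npnt as the exception. C1ql2 went from 14.1% in sham mice to 44.8% in BCAS mice and Lct from 25.1% to 49.9%. The share of all tested genes with a larger coefficient in BCAS mice was not computed. Over all genes, pairs of BCAS libraries also differed more than pairs of sham libraries. Their chi-square per gene was 32.27 to 44.13, against 12.94 to 22.38. Among BCAS libraries the highest level was 3.13 times the lowest in Lct, 2.65 times in Dsp and 2 times in Prox1, against 1.68, 1.96 and 1.5 times among sham libraries.

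Sham library 3 was the lowest sham library, and BCAS library 2 the lowest BCAS library, for 10 of 10 genes. This pattern was noticed after seeing the data, and it held for 16.2% of all tested genes. Sham library 2 was the highest of its group in 8 genes and sham library 1 in 2. BCAS library 1 was the highest in 7 genes and BCAS library 3 in 3, namely Dsp, Npnt and Dock10. Relative to the mean of its group, BCAS library 2 deviated by -0.28 (Npnt) to -0.95 (Lct) on the log2 scale, and sham library 3 by -0.14 (C1ql2) to -0.62 (Dsp). Summed over the 10 genes, sham libraries 1 to 3 had 547.6, 604.2 and 434.6 CPM and BCAS libraries 1 to 3 had 614.3, 336.6 and 507.3 CPM, so the sums overlapped between groups.

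Other marker lists moved between the same libraries. Choroid plexus markers summed to 1018, 4189 and 76.53 CPM in sham libraries 1 to 3 and to 6093, 52.48 and 3315 CPM in BCAS libraries, in the same order within each group as the granule cell sum. All 8 of these markers were lowest in sham library 3 and BCAS library 2, and between the groups their edgeR adjusted P ran from 0.412 to 0.717. None of the 8 markers was at 0, and Ttr, the transthyretin gene of choroid epithelium, ranged from 23.7 to 5460 CPM. Oligodendrocyte markers summed to 6594, 6126 and 5378 CPM in sham libraries and 6693, 6054 and 9107 CPM in BCAS libraries, and 7 of 8 were lowest in both sham library 3 and BCAS library 2. CA1 markers ran the other way in sham libraries, at 940.9, 793.5 and 1053 CPM, and among BCAS libraries were highest in library 2 (475.5, 699.1 and 460.8 CPM). Pan-neuronal genes summed to 9154, 9414 and 10170 CPM in sham libraries and 6496, 7582 and 5353 CPM in BCAS libraries. That sum, in which Snap25 weighs heavily, was highest in sham library 3 and BCAS library 2, but not every gene of the list was, and Nefm was lowest in both. The part of these differences in the results was not tested beyond the fit with a covariate and the left-out libraries.

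In a fit with the log2 choroid plexus sum as a covariate, added after seeing the data, the same 3 genes were lower. Of all tested genes 14.8% were called lower in that fit and 19.3% higher. Tdo2 was at -1.59 (SE 0.177, edgeR adjusted P = 0.000184), Dsp at -1.51 (SE 0.123, adjusted P = 3.34e-05) and Lct at -1.39 (SE 0.167, adjusted P = 0.000297). The standard error of Dsp was 0.364 without the covariate. Within each group the covariate has the library order of the granule cell sum, so smaller standard errors follow from its choice. The P values of this fit are therefore not an independent check of the calls. Prox1 was at -0.25 (SE 0.092, adjusted P = 0.0672) and was not called. Glis3 was at 0.24 (adjusted P = 0.103) and C1ql2 at -0.21 (adjusted P = 0.363), also not called. The covariate leaves 3 residual degrees of freedom among 6 libraries.

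**Figure D3:**
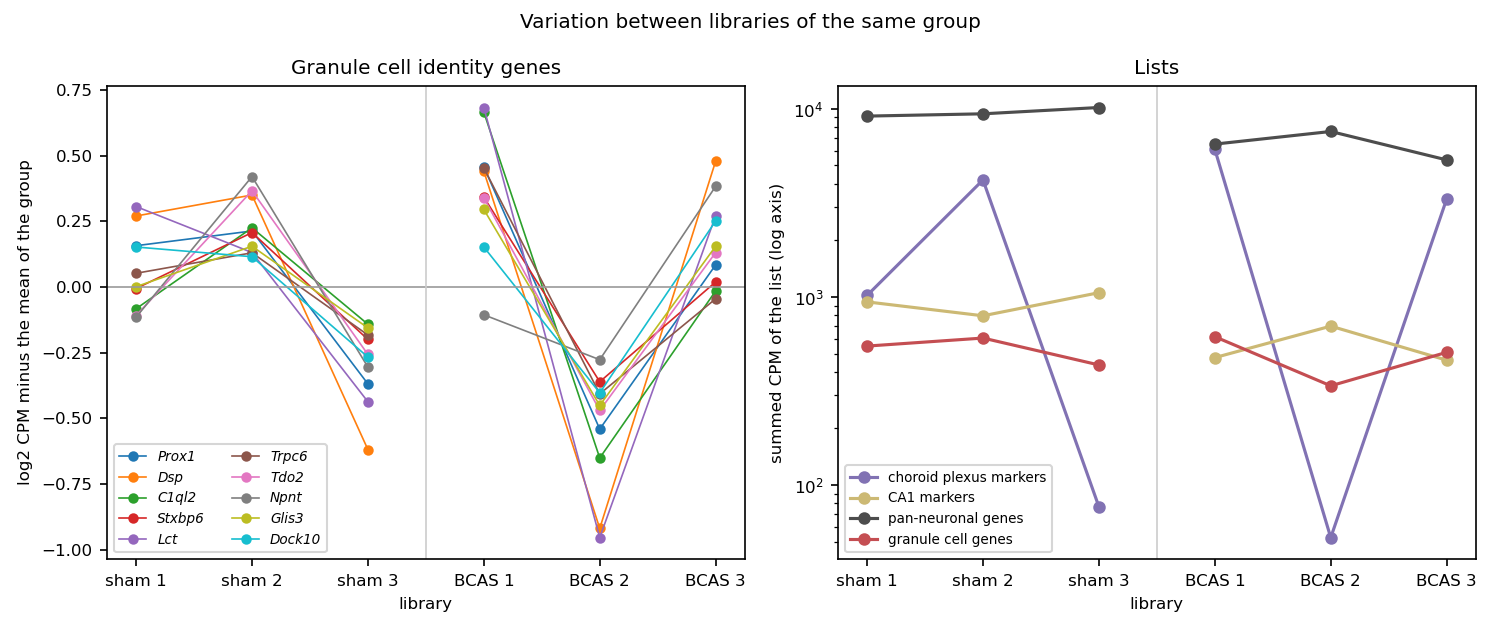
Left, log2 CPM of each of the 10 genes minus the mean of its group, by library. Right, summed CPM of 4 lists by library on a log axis. All 10 genes dip in sham library 3 and in BCAS library 2, where choroid plexus markers fall to 76.53 and 52.48 CPM, while CA1 markers do not dip in these libraries.

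Dividing each gene by Prox1 of the same library, a measure chosen after seeing the data, gives its level relative to the fate-determining factor. The ratio of Dsp was 0.3, 0.305 and 0.233 in sham libraries and 0.118, 0.0916 and 0.158 in BCAS libraries. That of Lct was 0.369, 0.314 and 0.317 against 0.181, 0.115 and 0.176, and that of Tdo2 was 0.0669, 0.0896 and 0.0868 against 0.0293, 0.0330 and 0.0328. The groups stayed apart in all 3 ratios, as they did in CPM, where 22.7% of all tested genes lay below in every BCAS library. The BCAS coefficient of variation went from 45% in CPM to 27.1% in Dsp, from 49.9% to 23.1% in Lct and from 27.7% to 6.49% in Tdo2, whereas in Npnt it went from 24.7% to 30.1%. C1ql2 (means 1.00 and 1.02), Stxbp6 (1.33 and 1.44), Trpc6 (0.204 and 0.228), Npnt (0.26 and 0.332) and Dock10 (0.839 and 1.00) overlapped between groups. Glis3 was the one ratio that lay above in all BCAS libraries, at 0.153, 0.164 and 0.198 in sham and 0.211, 0.251 and 0.248 in BCAS libraries. In CPM all BCAS libraries lay above all sham libraries in 25.3% of all tested genes. The share of all genes whose ratio to Prox1 separates the groups was not computed. These ratios are descriptions without a test.

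**Figure D4:**
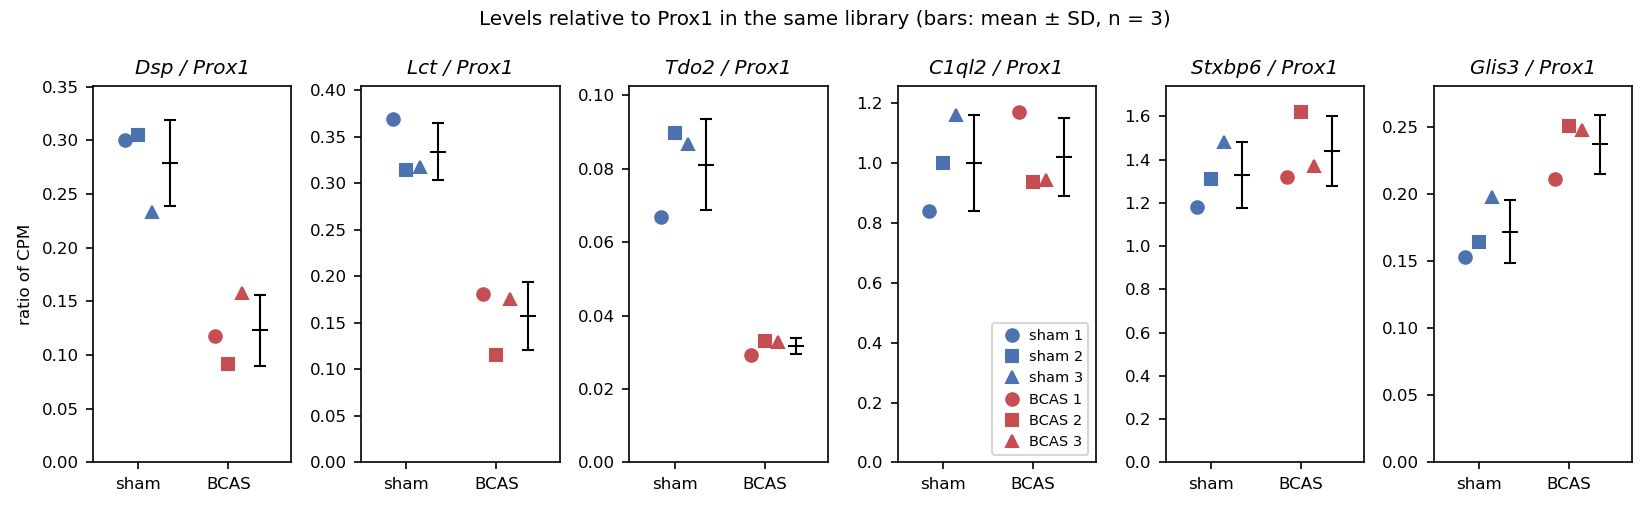
CPM of 6 genes divided by the CPM of Prox1 in the same library (vertical axes, from 0), with the mean ± SD of 3 libraries per group. Dsp, Lct and Tdo2 are lower in all BCAS libraries, C1ql2 and Stxbp6 overlap, and Glis3 is higher, with means of 0.172 ± 0.0233 in sham and 0.237 ± 0.0222 in BCAS.

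Levels of different genes were compared per kilobase of exon. In sham mice C1ql2 led with 47.7 ± 6.74 CPM per kb, followed by Stxbp6 (24.0 ± 3.39) and Prox1 (11.6 ± 2.40), and the ranges of these 3 did not overlap with the next gene. From Lct (5.07) through Npnt (5.01), Dock10 (4.41), Trpc6 (3.85), Dsp (2.86) and Tdo2 (2.01) to Glis3 (1.85), each gene overlapped with its neighbour in the order. In BCAS mice the top 3 were the same, at 45.9 ± 20.6, 23.3 ± 5.60 and 10.5 ± 3.47 CPM per kb, but C1ql2 overlapped with Stxbp6 and Prox1 with Npnt. Lct went from rank 4 to rank 8 and Glis3 from rank 10 to rank 7, and Tdo2 was last at 0.712 ± 0.197 CPM per kb.

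Further granule cell genes gave a mixed picture. Of 15 other genes used to mark granule cells, 5 were lower, 2 were higher and 8 were not called, with a median log2 fold change of -0.30. Calb1, the calcium buffer calbindin, which CA1 cells and interneurons also make, was lower (-0.87, edgeR adjusted P = 0.00543), with 154, 146 and 156 CPM in sham libraries and 75.9, 109 and 63.6 CPM in BCAS libraries. Bcl11b was lower by -0.72 (adjusted P = 0.00396), and C1ql3, the relative of C1ql2, by -0.62 (SE 0.097, adjusted P = 0.00184). C1ql3 had 55.1, 48.7 and 50.8 CPM in sham libraries and 33.2, 37.0 and 30.2 CPM in BCAS libraries, so it did not share the dip of C1ql2. Maml2 (0.55, adjusted P = 0.0265) and Smad3 (0.31, adjusted P = 0.0166) were higher. Scaled to pan-neuronal genes, 1 of the 15 was lower, Calb1 (-0.35, adjusted P = 0.0386), and 3 were higher, while Bcl11b (-0.17) and C1ql3 (-0.08) were not called. Of all tested genes 0.661% were lower and 53.6% higher under this scaling. Of the 15 genes, 8 were lowest in both sham library 3 and BCAS library 2.

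Among genes of immature granule cells and their progenitors, Sox4 (0.74, edgeR adjusted P = 0.00185) and Sox11 (0.34, adjusted P = 0.0338), which are also made in other lineages, were higher. Dcx, the microtubule protein of young neurons, had 25.1, 25.2 and 24.1 CPM in sham libraries and 27.8, 29.2 and 19.0 CPM in BCAS libraries (0.03, adjusted P = 0.895). Scaled to pan-neuronal genes, Dcx was at 0.56 (adjusted P = 0.0157), near the median gene at 0.58. Neurod1 had -0.41 (adjusted P = 0.103).

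Counts are relative to the whole library, and markers of other cell types also differed between the groups. Microglia markers were higher in 10 of 10 genes (median 3.10), from a sum of 382 to 398 CPM to 2730 to 4450 CPM, and astrocyte markers in 8 of 9. Pan-neuronal genes were lower in 12 of 15 (median -0.59) and CA1 markers in 5 of 8 (median -0.95). Under the pan-neuronal scaling, with the median gene at 0.58 and 0.661% of genes lower, Tdo2 was lower (-0.92, SE 0.321, edgeR adjusted P = 0.0331). Dsp (-0.72, adjusted P = 0.16) and Lct (-0.58, adjusted P = 0.231) kept a negative value but were not called. Glis3 (0.91, adjusted P = 0.0165) and Dock10 (0.67, adjusted P = 0.0421) were called higher, where the median gene stood at 0.58. Of all tested genes 53.6% were called higher under this scaling. Prox1, C1ql2 and Stxbp6 turned positive (0.44, 0.52 and 0.53) without a call. Under the same scaling the medians of the other granule cell genes, the C1QL partners and the SNARE partners also turned positive (0.27, 0.12 and 0.17).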

How the data were processed

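RNA from the whole right hippocampus of 3 sham and 3 BCAS mice was sequenced, and samples were grouped by their labels. The authors trimmed the reads with Trim Galore, aligned them to mm10 with HISAT2 and ran featureCounts. The deposited values are raw counts per gene, without normalization. The file headers name featureCounts 2.0.3, whereas the submitters' processing notes name 1.6.3. By these headers each mate was a read of its own, the strand was not used, and reads with several alignments or on several genes were left out.

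Symbols were found for 54723 of 54752 genes. Genes were filtered with filterByExpr, scaled by TMM (factors 0.964 to 0.984 in sham and 1.01 to 1.05 in BCAS libraries) and compared with edgeR 4.0.16 in R 4.3.3, with Benjamini-Hochberg adjustment. The common biological coefficient of variation was 0.161. Alternatives were DESeq2 1.42.0, limma-voom (limma 3.58.1), other scalings and filters, counts halved, a replicate block and leaving out each library. The genes, lists and tests were chosen with earlier results of these data known. All 10 genes are named, with up to 3 called genes per list and direction by size of change and direct partners of a gene. Other list genes were named after their values were seen. The steps were tested on simulated data.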

Additional observations from a re-analysis of the deposited data

How the results depend on the processing

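Over 18 alternatives for each of the 10 genes, 142 of 180 values kept their direction and their side of the threshold, 10 lost a call, 5 gained one and 23 changed sign, all of the last in genes that were not called. Scaled to pan-neuronal genes, 1 gene was lower, 2 were higher and 0 were DEGs, and Prox1, C1ql2 and Stxbp6 changed sign (0.436, 0.52 and 0.532). That scaling moved the median of all tested genes to 0.577, with 53.6% called higher and 0.661% lower. The counts of the other gene lists under it also stand beside these shares. With library totals, which moved the median of all genes to 0.095, C1ql2 was 0.021 and Stxbp6 was 0.04. Under 2 alternatives added after seeing the data 3 genes stayed lower and 1 gene was higher, Glis3, where 23.4% (scaled to the other dentate granule genes) and 14.8% (libraries left out) of all genes were higher and 1.63% and 11.6% lower. Scaled to the other dentate granule genes (median of all genes 0.274, Glis3 0.566, adjusted P = 0.0381), Prox1 was 0.1, C1ql2 0.155 and Stxbp6 0.203. With sham library 3 and BCAS library 2 both left out, C1ql2 was 0.124 and Stxbp6 0.014. With the choroid plexus covariate Trpc6 was -0.051.

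Leaving out each library in turn gave 1 to 3 genes lower, 0 to 1 higher and 1 to 3 DEGs. In these fits 6.58% to 16.1% of all tested genes were called lower and 12.9% to 18.6% higher. Without sham library 1 or sham library 2 the share called lower was 7.61% and 7.39%, against 13.2% with all libraries. The share of DEGs among all genes was not computed for these fits. The single gene lower without sham library 1 or sham library 2 was Tdo2, which was also the single DEG without BCAS library 2. Log2 fold changes ran from -0.39 to 0.079 in Prox1, -0.455 to 0.2 in C1ql2, -0.226 to 0.115 in Stxbp6, -0.232 to 0.202 in Trpc6, -0.083 to 0.379 in Npnt, 0.173 to 0.51 in Glis3 and -0.042 to 0.257 in Dock10.

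The replicate numbers are those of the sample titles, while the columns inside the BCAS tables carry the names B2, B3 and B4. Sham and BCAS libraries of one title number did not deviate together, with residual correlations of 0.036, -0.314 and -0.158. With a replicate block 1750 genes were lower and 2782 higher, against 2463 and 3356. Dsp was not called under the block (-1.357, adjusted P = 0.0565), Lct and Tdo2 were, and Trpc6 was -0.005.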
